A study of Mus musculus with 8 samples.

Results

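The 10 genes described here belong to the insulin, GSK3 and FBXW7 pathway, in which the mutated serines of ERRα are phosphorylated. They are *Insr*, *Irs1*, *Irs2*, *Pik3r1*, *Akt1*, *Akt2*, *Gsk3a*, *Gsk3b* and *Fbxw7*, with *Foxo1* as a further target of AKT. They were chosen by gene name, and every ERRα ChIP-seq peak that the annotation gave to any of them in any of 4 peak lists, with its centre within 20 kb of the TSS, was taken as a member peak. Of 63890 listed peaks within 20 kb of a TSS, 54 met this rule, and of the 10 genes 9 had at least 1 such peak. *Gsk3b* had none. A further 92 peaks carried the name of a member gene but lay farther than 20 kb from the TSS, and they are used only as a comparison.

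Insulin binds the insulin receptor, which phosphorylates the IRS adaptor proteins. These recruit PI3K, whose lipid product activates AKT, and AKT in turn phosphorylates and inhibits GSK3 and FOXO1. GSK3 marks many proteins for FBXW7, the substrate receptor of an SCF ubiquitin ligase, and ERRα, an orphan nuclear receptor that drives genes of oxidative metabolism, is known as a substrate of this route. In skeletal muscle the pathway controls glucose uptake and glycogen storage, and in liver it restrains glucose output. The ERRα 3SA protein cannot be phosphorylated on 3 serines of its amino-terminal domain, so the lists allow the question of where the wild-type and the mutant receptor were found at the genes of the pathway that acts on those serines.

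ChIP with an ERRα antibody was done in liver and in skeletal muscle (gastrocnemius and soleus) of WT and ERRα 3SA phospho-mutant male C57BL/6N mice, 2 to 3 months old, at zeitgeber time 9. Chromatin was pooled from 5 mice for each muscle library and from 2 mice for each liver library, and each genotype and tissue gave 1 library and 1 peak list. There is therefore no replicate check between mice: no p-value is given, and every difference below is a difference between 2 lists. The mutation is present in all tissues of the animal as far as the labels say, and whole tissue was used, so the cell type behind a peak is unknown.

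Values are given below in the order WT muscle, ERRα 3SA muscle, WT liver, ERRα 3SA liver where 4 stand together. The number of peaks was 25427, 50647, 21813 and 29040, of which 12999, 23571, 11216 and 16104 lay within 20 kb of a TSS. Sequencing depth is unknown because the lists hold no reads, and a peak missing from a list was not called at the authors' threshold rather than shown to be absent. Each peak has a score from the peak caller, a whole number of at least 30. Scores were used to rank peaks within a list, where tied peaks share their best rank, and the rank is also given as a top percentage of its list. Some counts below also use a fixed lowest score, the same in each list. The score of 30 was held by 33.6%, 35.2%, 0.0688% and 0.461% of the peaks in the 4 lists. Whether a fixed score means the same in different lists is unknown, so counts at such a score give no contrast between muscle and liver. Of 8 muscle marker genes, 6 and 7 had a peak within 20 kb in the WT and ERRα 3SA muscle lists against 4 and 5 in liver, and of 8 liver marker genes 3 and 5 had one in the liver lists against 1 and 3 in muscle. Of all protein-coding genes, 34.5%, 47.9%, 29.9% and 37.7% had such a peak in the 4 lists. Both liver lists held at least as many muscle markers as liver markers. Of the liver markers, *Fgb*, *Cps1* and the gene for albumin, a defining marker of liver, had none in any list.

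The sequences below show the best matches to the ERR response element (ERRE), TCAAGGTCA, at the member genes. All positions are on GRCm38 (mm10), each sequence reads 5′ to 3′ on the stated strand, and capitals mark the match. Among all listed peaks within 20 kb, 7.44%, 8.27%, 21.4% and 20.4% of the 4 lists held the full 9 bases in the interval. Within 20 kb of the TSS and under the name of a member gene, the full 9 bases occurred in 2 of 36 bound regions, in *Insr* intron 1 and in an intron of *Fbxw7*.
*Insr* intron 1, chr8:3276761-3276809, minus strand: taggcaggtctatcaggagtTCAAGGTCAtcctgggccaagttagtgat
*Fbxw7* intron 1, chr3:84847400-84847448, plus strand: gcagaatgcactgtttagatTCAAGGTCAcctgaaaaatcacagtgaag
In 3 other regions the match was TGAAGGTCA, which fits the looser motif TNAAGGTCA, where N is any base.
*Akt2* intron 1, chr7:27593698-27593746, minus strand: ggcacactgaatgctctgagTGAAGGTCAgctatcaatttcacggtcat
*Fbxw7* intron 4, chr3:84949480-84949528, plus strand: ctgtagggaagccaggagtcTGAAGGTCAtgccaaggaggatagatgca
*Pik3r1* intron 5, chr13:101702256-101702304, plus strand: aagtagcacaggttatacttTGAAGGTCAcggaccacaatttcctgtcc
The *Irs2* and *Akt1* regions that were bound in 3 lists held only the inner 7 bases, AAGGTCA.
*Irs2* upstream, chr8:11013280-11013328, plus strand: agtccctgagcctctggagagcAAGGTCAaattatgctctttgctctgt
*Akt1* intron 1, chr12:112673794-112673842, plus strand: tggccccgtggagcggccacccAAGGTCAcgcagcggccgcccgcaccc
Regions with the full element in all 4 lists lay outside the rule: at *Irs2*, where the annotation names a neighbouring noncoding gene, and in *Foxo1*, where the distance exceeds 20 kb. The *Insr* intron 2 site was bound in 3 lists.
*Irs2* intron 1, chr8:11004430-11004478, plus strand: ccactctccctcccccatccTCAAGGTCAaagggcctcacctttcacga
*Foxo1* intron 1, chr3:52299936-52299984, minus strand: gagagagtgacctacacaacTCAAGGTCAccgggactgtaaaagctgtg
*Insr* intron 2, chr8:3256299-3256347, plus strand: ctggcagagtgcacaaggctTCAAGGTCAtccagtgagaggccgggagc

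In WT muscle 6 of the 10 genes had a peak within 20 kb, and the numbers for ERRα 3SA muscle, WT liver and ERRα 3SA liver were 7, 7 and 9. Among all RefSeq protein-coding genes the shares were 34.5%, 47.9%, 29.9% and 37.7%. A score of at least 50 was held by 1 of 7 member peaks in WT muscle and 4 of 14 in ERRα 3SA muscle. Of all peaks within 20 kb in these lists, 18.2% and 17.7% had such a score. With a score of at least 50, the member genes with a peak were 1, 3, 7 and 7, beside 8.06%, 13.5%, 14.9% and 22.0% of protein-coding genes. With a score of at least 100, the member genes with a peak were *Akt2* in WT muscle, *Irs1* and *Irs2* in ERRα 3SA muscle, and 5 and 6 genes in the liver lists, beside 2.87%, 5.49%, 8.02% and 11.9% of protein-coding genes. The order of the genotypes in muscle depended on the length of the lists. When each ERRα 3SA list was cut to its best-scoring peaks at the length of the WT list, 4 genes remained bound in ERRα 3SA muscle against 6 in WT muscle, and 7 in ERRα 3SA liver against 7 in WT liver. Both cuts fell inside tied scores, with 9967 muscle peaks sharing rank 19604 and 3714 liver peaks sharing rank 18865. Tied peaks were kept in list order, which alone removed the *Akt2* intervals of that rank in muscle and the *Gsk3a* interval in liver. The gene numbers after the cut therefore depend on how ties were broken.

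**Figure D1:**
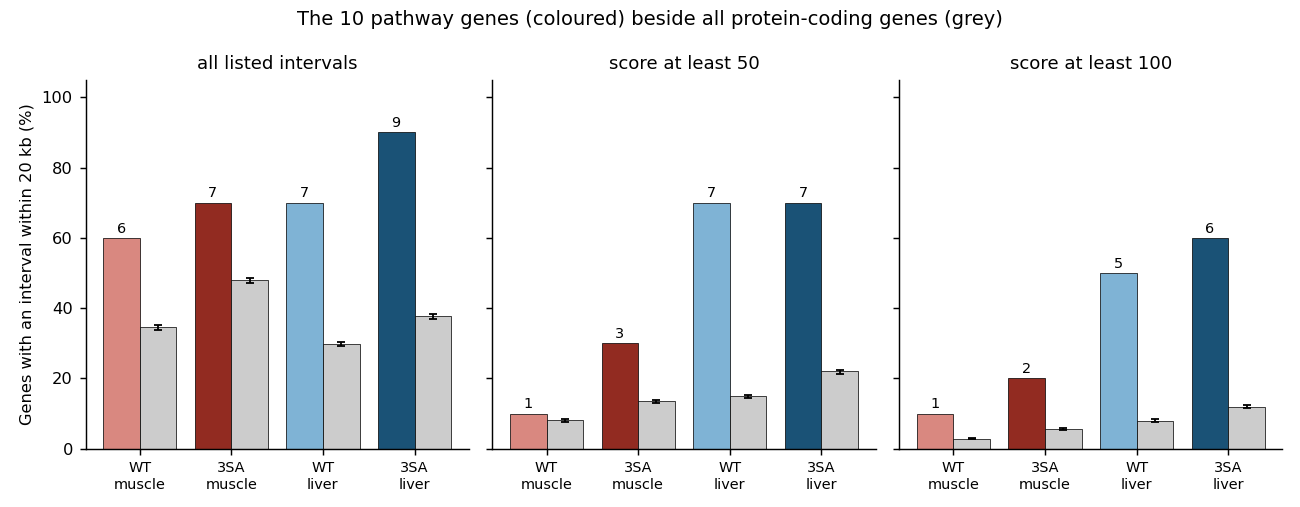
Share of genes (%) with an interval no more than 20 kb from the TSS, by list, for all listed intervals and at scores of at least 50 and 100. Coloured bars are the 10 pathway genes, with the number of genes above each bar, and grey bars are all RefSeq protein-coding genes with 95% Wilson intervals. At a score of at least 100 the counts were 1, 2, 5 and 6 genes. Whether a fixed score means the same in muscle and liver is unknown.

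Within 20 kb of the TSS *Irs1*, *Akt1*, *Akt2* and *Fbxw7* had a peak in all 4 lists, as did 12.5% of protein-coding genes. *Insr* and *Pik3r1* had a peak at this distance in WT muscle and in both liver lists but not in ERRα 3SA muscle, a pattern held by 341 of 21899 protein-coding gene names (1.56%). *Irs2* had one under its name in every list but WT muscle, as had 1216 genes (5.55%). *Gsk3a* and *Foxo1* had one within 20 kb only in the 2 ERRα 3SA lists, as had 921 genes (4.21%). *Gsk3b* had none within 20 kb in any list, like 7290 genes (33.3%). Intervals beyond 20 kb were named for each of the 10 genes except *Akt1* and *Gsk3a*.

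**Figure D2:**
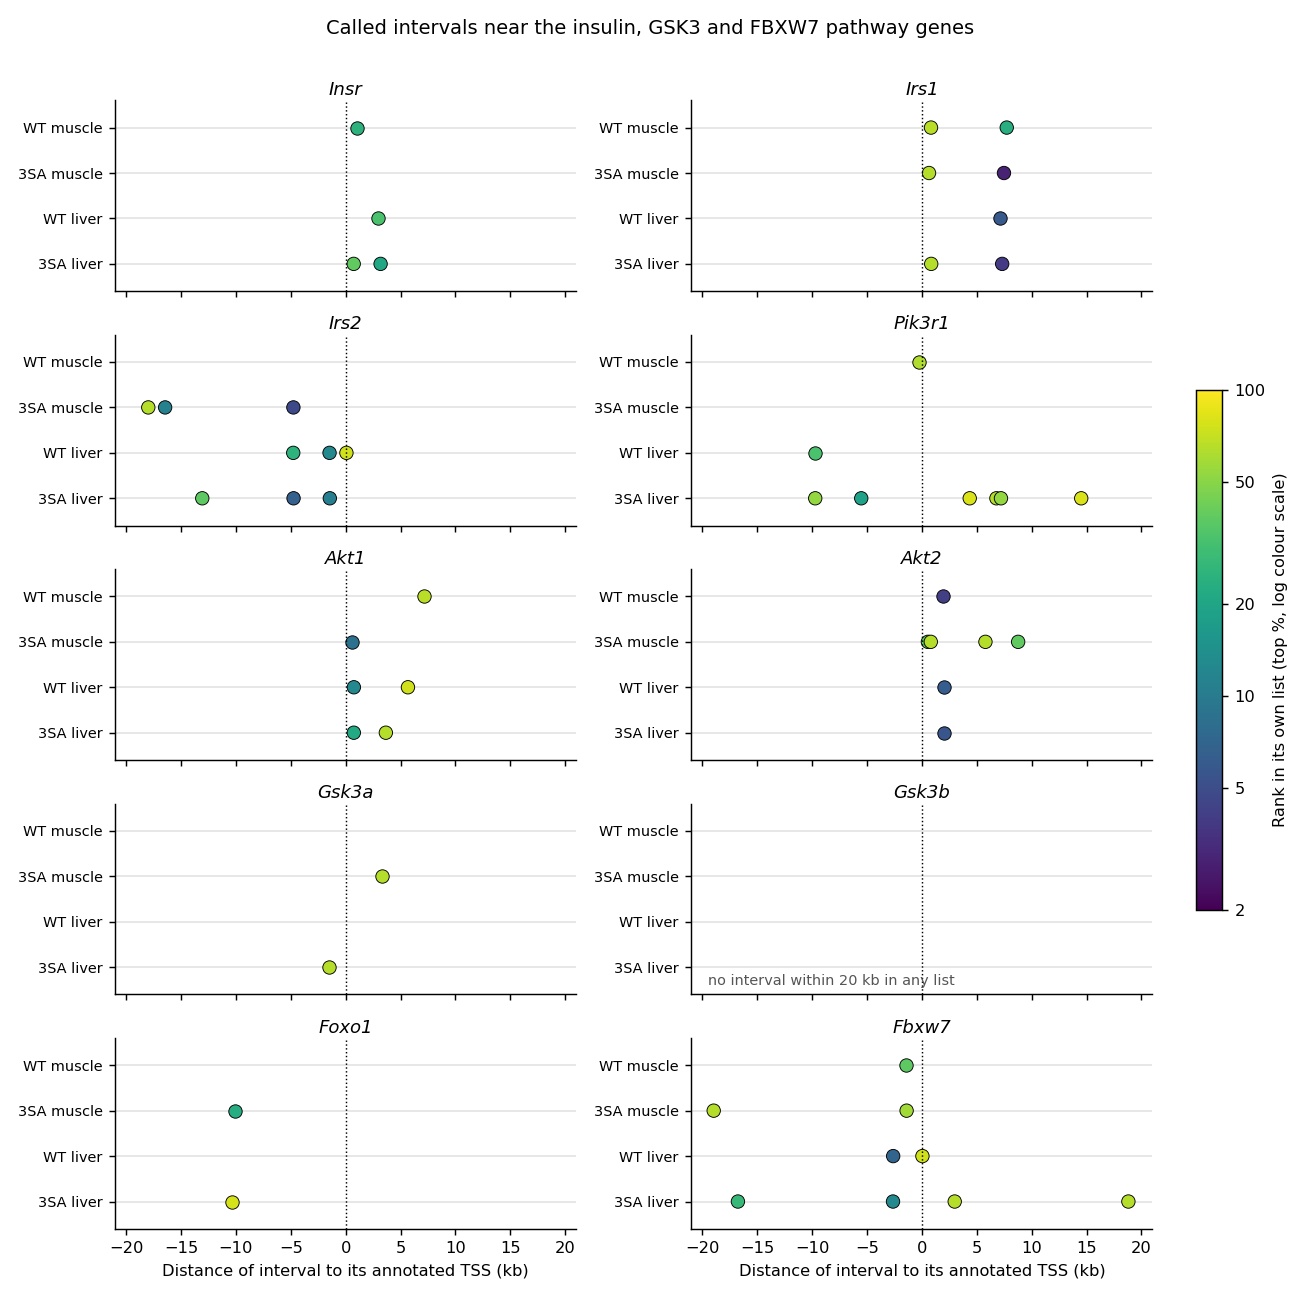
Each point is a called interval within 20 kb of the TSS that the annotation gives it, placed by its distance from that TSS in kb, with a row for each list and a panel for each gene; negative distances are upstream. The colour gives the rank in its own list as a top percentage on a log scale, dark being the best ranked. *Irs1* has an interval near 7 kb in all 4 rows, and *Gsk3b* has none.

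*Insr* encodes the insulin receptor. Its 4 peaks fell into 2 regions of intron 1. The region about 3 kb downstream of the TSS was called in both livers, in WT at chr8:3276124-3277211 (rank 7108, top 32.6%) and in ERRα 3SA at chr8:3275877-3276999 (rank 5956, top 20.5%), and both intervals contained the full ERRE printed above. The region nearer the TSS was called in WT muscle at 1.02 kb (rank 6260, top 24.6%) and in ERRα 3SA liver at 0.728 kb (rank 11195, top 38.6%). No interval within 20 kb was called in ERRα 3SA muscle, although this list was the longest.

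Beyond the 20 kb limit, *Insr* held better-ranked intervals than within it. The intron 2 site at about 23.3 kb, with the full ERRE, ranked 1165 in WT liver (top 5.34%), 1966 in ERRα 3SA liver (top 6.77%) and 17698 in ERRα 3SA muscle (top 34.9%), and it was not called in WT muscle. A second intronic region, in intron 9 at about 91.7 kb, was called in both muscle lists and in neither liver list, with rank 1481 in WT muscle (top 5.82%) and 871 in ERRα 3SA muscle (top 1.72%). Thus the best *Insr* interval of either tissue lay in an intron far from the TSS, at a different position in muscle than in liver.

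*Irs1* encodes the adaptor that carries the signal of the receptor in muscle. It held the only member region called in all 4 lists, in intron 1 about 7 kb from the TSS. In muscle the interval spanned chr1:82282981-82284445 for WT and chr1:82283393-82284540 for ERRα 3SA, and in liver chr1:82284002-82284671 for WT and chr1:82283633-82284625 for ERRα 3SA. Its rank in muscle was 5875 in WT (top 23.1%) and 1467 in ERRα 3SA (top 2.90%), and in liver 1288 in WT (top 5.90%) and 1143 in ERRα 3SA (top 3.94%). WT muscle was the list in which the region ranked lowest. Among all listed peaks within 20 kb, those that overlapped an interval of each other list made up 13.3%, 7.34%, 15.5% and 10.9% of the 4 lists, so 1 member peak per list stands beside those shares.

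The 444 bp common to the 4 *Irs1* intervals, chr1:82284002-82284445, held no AAGGTCA on either strand, and the central 300 bp held no AGGTCA either. They are shown because this is the most widely shared member region and yet it lacks the element; nothing is in capitals as nothing matched.
*Irs1* intron 1, chr1:82284074-82284373, plus strand: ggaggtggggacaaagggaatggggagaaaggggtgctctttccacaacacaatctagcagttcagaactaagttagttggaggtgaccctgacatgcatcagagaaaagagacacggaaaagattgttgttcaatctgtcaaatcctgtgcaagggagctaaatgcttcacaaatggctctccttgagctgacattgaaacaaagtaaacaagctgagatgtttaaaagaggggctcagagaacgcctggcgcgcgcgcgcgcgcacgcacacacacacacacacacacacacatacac
A weaker *Irs1* region lay in the 5′ UTR of exon 1, between 0.647 and 0.846 kb from the TSS. It was called in WT muscle (top 66.4%), ERRα 3SA muscle (top 64.8%) and ERRα 3SA liver (top 65.0%), in the 2 muscle lists at the lowest score that the lists contain.

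*Irs2* encodes the IRS adaptor that predominates in liver. In the ERRα 3SA lists its best-ranked named region lay 4.8 kb upstream of the TSS, at chr8:11012910-11013480 in ERRα 3SA muscle (rank 2384, top 4.71%), chr8:11012826-11013593 in WT liver (rank 5512, top 25.3%) and chr8:11012830-11013530 in ERRα 3SA liver (rank 1929, top 6.64%). No WT muscle interval overlapped it. Among ERRα 3SA muscle peaks within 20 kb that ranked at least as high, 193 of 1466 (13.2%, 95% Wilson interval 11.5 to 15.0%) had no overlapping WT muscle interval. A region 1.5 kb upstream was called only in liver, in both genotypes, at top 12.7% in WT and top 10.5% in ERRα 3SA. A WT liver interval 0.066 kb downstream of the TSS (top 75.0%) overlapped intervals of WT muscle (top 16.0%) and ERRα 3SA liver (top 53.4%) that carried another name. The remaining *Irs2* intervals were in 1 list each: 13.1 kb upstream in ERRα 3SA liver (top 37.9%), and 16.5 and 18.0 kb upstream in ERRα 3SA muscle (top 11.0% and 64.8%).

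WT muscle nevertheless had intervals inside *Irs2* that carried another name. The TSS of the noncoding gene *9530052E02Rik* lies close to that of *Irs2*, and 10 intervals inside the *Irs2* transcript were named for it, 3 of them in WT muscle. A region about 4 kb into *Irs2*, which covers the end of the first coding exon and the start of intron 1, was called in all 4 lists and is the site of the full ERRE printed above. It spanned chr8:11004284-11004959 in WT muscle (rank 1058, top 4.16%), chr8:11004230-11005897 in ERRα 3SA muscle (rank 588, top 1.16%), chr8:11004236-11005567 in WT liver (rank 1369, top 6.28%) and chr8:11004183-11005211 in ERRα 3SA liver (rank 1935, top 6.66%). In ERRα 3SA muscle and WT liver it ranked above every interval named for *Irs2* within 20 kb. When any interval within 20 kb of a RefSeq TSS was counted whatever gene it was named for, a rule added after the values were seen, 8, 7, 8 and 9 of the 10 genes had one, beside 49.3%, 63.2%, 43.9% and 52.2% of protein-coding genes. The genes added were *Irs2* in WT muscle and *Gsk3a* in WT muscle and WT liver. A region 61.9 kb upstream of *Irs2* also held the full ERRE and was called in all 4 lists, with ranks of 2194, 3595, 8204 and 2437 in WT muscle, ERRα 3SA muscle, WT liver and ERRα 3SA liver.

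*Pik3r1* encodes the p85 regulatory subunits of PI3K, which bind phosphorylated IRS proteins. Within 20 kb, its only WT muscle peak lay at the promoter, 0.277 kb upstream of the TSS (top 62.4%), and ERRα 3SA muscle had none. In WT liver there was 1 peak at this distance, 9.75 kb upstream of the nearer TSS and inside intron 5 of the long transcript (rank 7108, top 32.6%), and the same region was called in ERRα 3SA liver (rank 15499, top 53.4%). ERRα 3SA liver added 5 intervals in other introns, of which that 5.53 kb upstream of the nearer TSS ranked best (rank 5533, top 19.1%) and the other 4 lay between the top 53.4% and the top 80.6%. With 6 peaks within 20 kb *Pik3r1* was the most often bound member in any list, and 1.65% of all genes bound in ERRα 3SA liver had 6 or more. Farther than 20 kb, 5, 2, 6 and 7 intervals of the 4 lists were named for *Pik3r1*. A region about 346 kb upstream, with the full ERRE, was called in both muscle lists. It ranked 16894 in WT muscle (top 66.4%) and 1773 in ERRα 3SA muscle (top 3.50%).

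*Akt2* encodes the AKT kinase through which insulin drives glucose uptake. Its main region lay in intron 1, 2 kb from the TSS, at chr7:27593137-27593821 in WT muscle (rank 1058, top 4.16%), chr7:27593128-27594069 in WT liver (rank 1369, top 6.28%) and chr7:27593000-27594073 in ERRα 3SA liver (rank 1666, top 5.74%). It was the best-ranked member peak of WT muscle, and no ERRα 3SA muscle interval overlapped it. Of the 771 WT muscle peaks within 20 kb that ranked at least as high, 13 had no overlapping ERRα 3SA muscle interval (1.69%, 95% Wilson interval 0.988 to 2.86%). This figure was computed after the interval had been seen to be missing and describes these lists only. ERRα 3SA muscle instead had 4 other intervals at *Akt2*, 0.544, 0.808, 5.79 and 8.77 kb from their TSSs, each between the top 38.7% and the top 64.8% and none of them called in another list.

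*Akt1* encodes the more broadly expressed AKT kinase. A region in intron 1 about 0.7 kb from the TSS was called in ERRα 3SA muscle at chr12:112673438-112673903 (rank 4392, top 8.67%), in WT liver at chr12:112673084-112673979 (rank 2765, top 12.7%) and in ERRα 3SA liver at chr12:112673043-112674032 (rank 6120, top 21.1%). It held the AAGGTCA match printed above and was not called in WT muscle. A peak missing in this way was common: 36.5% of the 2930 ERRα 3SA muscle peaks within 20 kb that ranked at least as high had no overlapping WT muscle interval. The other intervals named for *Akt1* ranked low and each lay in a region with this name in 1 list only, 7.12 kb from the TSS in WT muscle (top 66.4%), 5.67 kb in WT liver (top 75.0%) and 3.66 kb in ERRα 3SA liver (top 65.0%). The WT muscle interval overlapped an ERRα 3SA muscle interval that was named for the microRNA gene *Mir6939*. At the 3′ end of *Akt1*, more than 20 kb from the TSS, a region also named for *Mir6939* was called in all 4 lists, at chr12:112653209-112654070 in WT muscle (rank 1543, top 6.07%), chr12:112653274-112655050 in ERRα 3SA muscle (rank 1316, top 2.60%), chr12:112653303-112654214 in WT liver (rank 2403, top 11.0%) and chr12:112653341-112654291 in ERRα 3SA liver (rank 4837, top 16.7%). In each list it ranked above every interval named for *Akt1*. The muscle pattern of *Akt1* was thus the reverse of that of *Akt2*: the intron 1 region was called in the mutant list for *Akt1* and in the WT list for *Akt2*, whereas both were called in both livers.

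**Figure D3:**
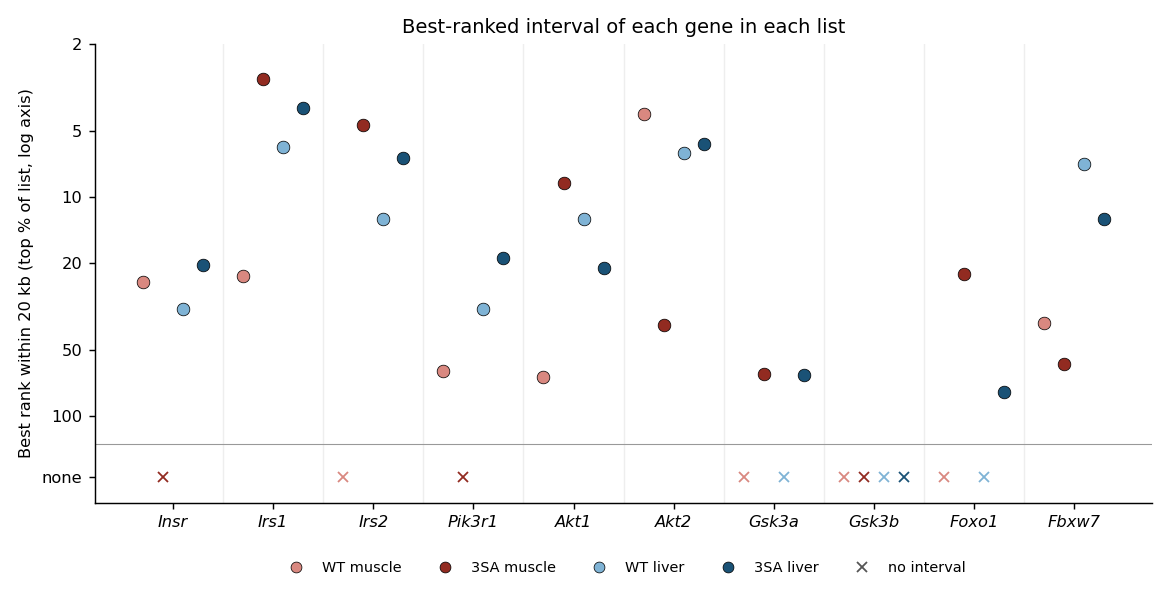
Rank of the best interval within 20 kb of each gene in each list, as a top percentage on a log axis with the best ranks at the top; crosses below the line mark genes with no interval in that list. In muscle the best *Irs1* interval lay in the same region in both genotypes, at the top 23.1% in WT and the top 2.90% in ERRα 3SA. The best *Akt2* intervals, at the top 4.16% in WT and the top 38.7% in ERRα 3SA, were different sites, and the WT site was not called in ERRα 3SA muscle.

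*Gsk3a* and *Gsk3b* encode the GSK3 kinases. *Gsk3a* had 1 weak peak in each ERRα 3SA list and none in the WT lists, in intron 2 at 3.27 kb in muscle (top 64.8%) and 1.49 kb upstream in liver (top 65.0%). They did not overlap. Stronger intervals within 20 kb of the *Gsk3a* TSS were named for its neighbours, among them an interval 0.724 kb upstream of *Zfp526* in WT muscle (top 4.66%), with the full ERRE, and a region in *Erf* that was called in all 4 lists. At *Gsk3b* the nearest named interval lay 23.9 kb upstream in WT liver (chr16:38064748-38065551, rank 4147, top 19.0%) and 23.5 kb upstream in ERRα 3SA liver (chr16:38064743-38066207, rank 2730, top 9.40%), and no muscle interval was named for it. Inside the *Gsk3b* transcript 3 intervals of WT liver, 4 of ERRα 3SA liver and 3 of ERRα 3SA muscle were named for other genes. A pair of them about 21.1 and 21.8 kb into intron 1 was called in both livers, and WT muscle had none.

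*Foxo1* encodes a transcription factor of gluconeogenesis and muscle atrophy genes that AKT excludes from the nucleus. Within 20 kb it had a peak only in the ERRα 3SA lists, about 10 kb upstream, at 10.1 kb in muscle (rank 11369, top 22.4%) and 10.3 kb in liver (rank 22579, top 77.8%), and the intervals shared 33 bp. Farther away *Foxo1* was bound in every list. The intron 1 site at about 31.6 kb, with the full ERRE, ranked 1186 in WT muscle (top 4.66%), 818 in ERRα 3SA muscle (top 1.62%), 3204 in WT liver (top 14.7%) and 3413 in ERRα 3SA liver (top 11.8%). Within 20 kb *Foxo1* would be read as bound in the mutant alone, whereas this site was called in both genotypes and both tissues.

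*Fbxw7* encodes the substrate receptor that recognizes proteins phosphorylated by GSK3. Muscle and liver used different regions. In muscle a CpG-rich region 1.4 kb upstream of the first TSS was called in both genotypes, at chr3:84813906-84814361 in WT (rank 9617, top 37.8%) and chr3:84813887-84814475 in ERRα 3SA (rank 29571, top 58.4%). In liver both genotypes had an interval 2.6 kb upstream of the last TSS, at chr3:84949398-84949787 in WT (rank 1549, top 7.10%) and chr3:84949412-84949742 in ERRα 3SA (rank 3657, top 12.6%), with the TGAAGGTCA match printed above. The interval with the full ERRE, 16.8 kb upstream of the middle TSS, was called only in ERRα 3SA liver (rank 7934, top 27.3%). A further 4 regions in 1 list each ranked between the top 64.8% and the top 75.0%. These included the intervals at the edge of the rule, the member peaks farthest inside being 19.0 kb from an *Fbxw7* TSS in ERRα 3SA muscle and 18.8 kb in ERRα 3SA liver, and the nearest outside being 21.5 kb from an *Fbxw7* TSS in ERRα 3SA muscle and 22.0 kb from an *Akt2* TSS in ERRα 3SA liver.

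Overlapping member peaks formed 36 regions, of which 24 were in 1 list, 7 in 2 lists, 4 in 3 lists and 1 in all 4. When overlapping intervals with another gene name were counted too, a rule added after the values were seen, these numbers were 22, 8, 5 and 1, the changed regions being the *Irs2* promoter and the *Akt1* region about 7 kb from the TSS. Of the 24 regions, 2 and 8 came from the WT and ERRα 3SA muscle lists and 3 and 11 from the WT and ERRα 3SA liver lists. In each tissue the ERRα 3SA list is the longer one. Regions were not counted in this way over all genes, so this split is not a result about the member genes. A partner in the other genotype of the same tissue, with centres within 300 bp, was found for 3 of 7 WT muscle peaks and 3 of 14 ERRα 3SA muscle peaks, beside 23.4% and 12.9% of all peaks within 20 kb. In liver it was found for 9 of 11 WT peaks and 8 of 22 ERRα 3SA peaks, beside 49.1% and 34.2%. The WT liver peaks without a partner were the weak intervals at *Akt1* and *Fbxw7*. The *Irs2* promoter peak of WT liver had its partner in an ERRα 3SA interval named for *9530052E02Rik*.

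Sharing between tissues was counted in the same way within each genotype. In WT mice 1 of 7 muscle peaks and 1 of 11 liver peaks had a partner in the other tissue, the *Akt2* intron 1 interval in each case, beside 14.9% and 17.3% of all peaks within 20 kb. In ERRα 3SA mice 5 of 14 muscle peaks and 5 of 22 liver peaks did, at *Irs1* (2 regions), *Irs2*, *Akt1* and *Foxo1*, beside 15.4% and 22.5%. When any shared base counted, the numbers were 2 of 7, 5 of 14, 3 of 11 and 5 of 22, beside 18.9%, 19.6%, 22.0% and 28.8% of all peaks within 20 kb. The WT intervals added were those in *Irs1* intron 1, whose centres lie 623.5 bp apart, and the *Irs2* promoter peak of WT liver, which overlapped a WT muscle interval named for *9530052E02Rik*.

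**Figure D4:**
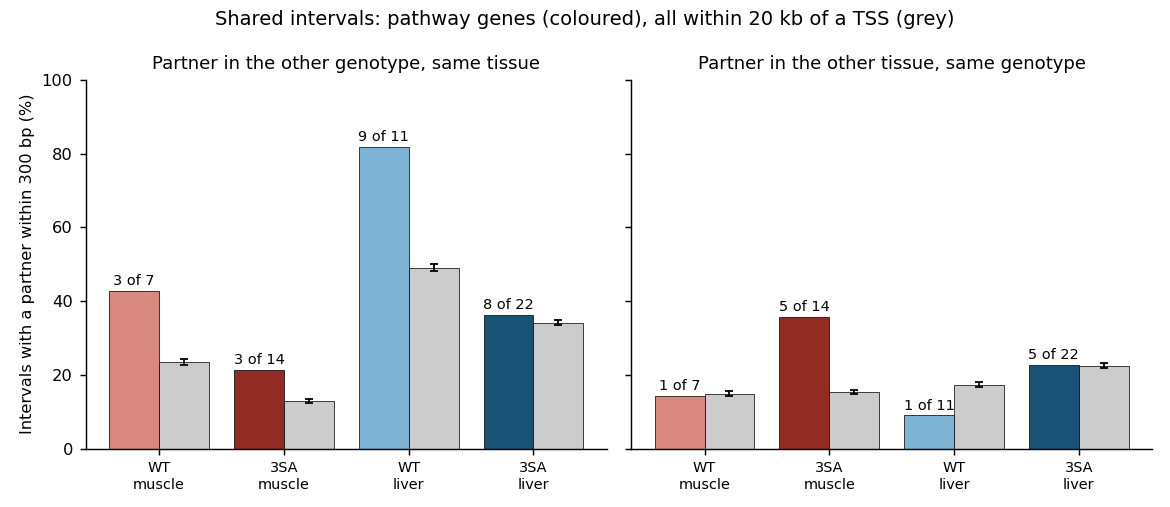
Share of intervals (%) with a partner whose centre lies within 300 bp, in the other genotype of the same tissue (left) and in the other tissue of the same genotype (right). Coloured bars are the intervals of the pathway genes with their numbers, and grey bars are all intervals within 20 kb of a TSS with 95% Wilson intervals. In WT liver 9 of 11 intervals had a partner in ERRα 3SA liver.

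The regions present in both genotypes did not all move in the same direction in rank. In muscle, of 3 such regions, the *Irs1* intron 1 region had a smaller top percentage in ERRα 3SA and the *Fbxw7* region a larger one, while the *Irs1* 5′ UTR region had the lowest score in both lists and so gives no direction. In liver 5 of 8 had a smaller top percentage in ERRα 3SA, among them the upstream *Irs2* region (top 25.3% in WT, top 6.64% in ERRα 3SA), and those of *Pik3r1*, *Akt1* and *Fbxw7* had a larger one. By gene, the best interval had a smaller top percentage in ERRα 3SA for 2 of 4 genes bound in both muscle lists and for 5 of 7 genes bound in both liver lists, beside 71.0% and 63.4% of all genes so bound. Since the ERRα 3SA lists are longer, an equal rank number gives a smaller percentage there.

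The ERRE was searched for in the central 300 bp of each peak. The full element was found in 0 of 7 WT muscle peaks, 0 of 14 ERRα 3SA muscle peaks, 1 of 11 WT liver peaks and 1 of 22 ERRα 3SA liver peaks, beside 4.45%, 4.84%, 15.1% and 14.9% of all peaks within 20 kb. TNAAGGTCA, which includes the full element, was found in 0, 0, 4 and 3 of them, beside 6.19%, 6.85%, 20% and 19.6%. AAGGTCA, which both of these contain, was found in 1, 2, 5 and 4, beside 13.8%, 15.2%, 35.8% and 35.5%. These numbers are small, and in WT liver the count lay below the share of all peaks for TCAAGGTCA and above it for the other 2 motifs. These are matches of letters on either strand and not measurements of binding to them.

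The intervals of the same genes that lay farther than 20 kb from the TSS were searched in the same way. Anywhere in the called interval, TCAAGGTCA was present in 25 of 92 far intervals but in 3 of 54 near ones. Only intervals named for a member were counted. The *Irs2* region about 4 kb from the TSS, named for *9530052E02Rik*, held the element in all 4 lists. The interval near *Zfp526*, about 17 kb from the *Gsk3a* TSS, held it in WT muscle, WT liver and ERRα 3SA liver. Under any gene name the near count would therefore be higher. By list, the far intervals with the element were 4 of 19, 5 of 19, 9 of 26 and 7 of 28, beside 5.22%, 5.77%, 18.0% and 20% of all far peaks. The near ones were 0 of 7, 0 of 14, 1 of 11 and 2 of 22, beside 7.44%, 8.27%, 21.4% and 20.4% of all near peaks. Over all genes the share in the whole interval was higher near the TSS than far from it in each of the 4 lists, whereas in the central 300 bp ERRα 3SA liver had 14.9% near and 15.7% far. Many far intervals are the same site called in several lists, as at *Foxo1* and *Irs2*, and 12 of 68 distinct far regions held the element. The annotation placed some far intervals with the element in repeats, as at *Insr* in WT liver, 31.8, 47.9 and 108.7 kb from the TSS. Others, as the *Foxo1* intron 1 site in all 4 lists, were not placed in a repeat. The part of repeats in these counts was not tested.

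**Figure D5:**
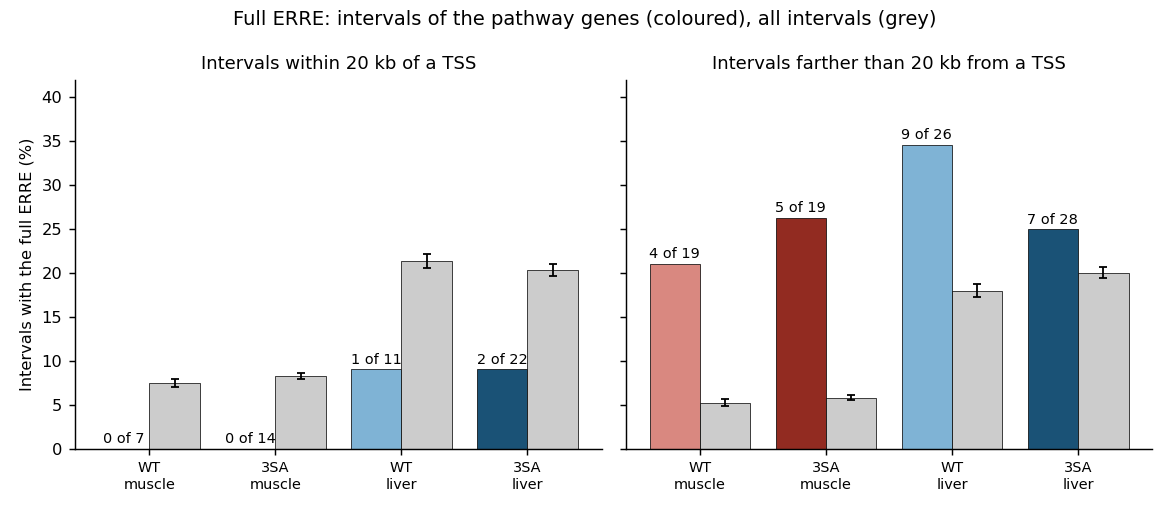
Share of called intervals (%) that contain TCAAGGTCA on either strand, for intervals within 20 kb of a TSS (left) and farther away (right). Coloured bars are the intervals of the pathway genes with their numbers, and grey bars are all listed intervals with 95% Wilson intervals. Near the TSS 0, 0, 1 and 2 intervals named for these genes held the element, against 4, 5, 9 and 7 farther away. Near intervals under another gene name, as at *Irs2*, are not in the coloured bars.

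Of the 54 member peaks 42 were intronic (77.8%), 4 at a promoter, 3 in a 5′ UTR and 5 intergenic, whereas 47.3% of all peaks within 20 kb were intronic. The intronic class counts an intron of any gene. Every *Irs2* peak in it lay upstream of *Irs2*, in intron 1 of *9530052E02Rik*. A site called in several lists counts once for each list. Of the promoter peaks, 1 each was at *Pik3r1* in WT muscle, *Akt2* in ERRα 3SA muscle, and *Irs2* and *Fbxw7* in WT liver, and they ranked between the top 38.7% and the top 75.0%. ERRα 3SA liver had 22 member peaks and none at a promoter, beside 12.0% of all its peaks within 20 kb. Member peaks had a median width of 465.5 bp beside 461 bp for all peaks within 20 kb, and a median GC content of 52.3% beside 53.1%. The median ranks of member peaks were the top 37.8%, 48.5%, 25.3% and 46.0%, beside 40.2%, 38.7%, 45.2% and 44.8% for all peaks within 20 kb.

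A wider list of 38 genes of the same route contained none of the 10. A peak within 20 kb was present for 15, 23, 16 and 20 of them, beside 34.5%, 47.9%, 29.9% and 37.7% of protein-coding genes, and with a score of at least 100 for 2, 3, 4 and 9, beside 2.87%, 5.49%, 8.02% and 11.9%. In muscle WT and ERRα 3SA had 11 bound genes in common, 12 were bound in the mutant and not in WT, and 4 the other way round, beside 25.6%, 22.4% and 8.95% of protein-coding genes. In liver these numbers were 13, 7 and 3, beside 22.6%, 15.0% and 7.28%. By arm, the bound genes were 4, 6, 4 and 5 of 8 receptors and adaptors, 4, 3, 4 and 5 of 7 genes of the PI3K arm, and 2, 7, 4 and 4 of 11 genes of the AKT and mTOR arm. They were 2, 4, 2 and 4 of 5 targets and relatives of GSK3 and FOXO, and 3, 3, 2 and 2 of 7 genes of the SCF ligase. *Gys1*, the muscle glycogen synthase that GSK3 phosphorylates, held the best-ranked interval of the list in both muscles, in an intron at rank 42 in WT and 45 in ERRα 3SA. *Sh2b1*, an adaptor of the insulin receptor, had a promoter interval at rank 65, 67, 140 and 88 in WT muscle, ERRα 3SA muscle, WT liver and ERRα 3SA liver. No interval of the 10 member genes within 20 kb ranked as high as either. The other best-ranked genes were *Tbc1d1* in WT muscle (top 7.10%), *Foxo6* in ERRα 3SA muscle (top 4.73%), *Fbxw2* and *Pik3ca* in WT liver (top 7.54% and 12.6%), and *Pik3ca* and *Gys2* in ERRα 3SA liver (top 5.05% and 9.85%). *Gys2* is the liver glycogen synthase, and its interval at the promoter had no partner in WT liver.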

How the data were processed

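The data were 4 lists of ERRα ChIP-seq peaks, 1 for each genotype (WT, ERRα 3SA) and tissue (skeletal muscle, liver). The 4 input samples served the authors as controls and hold no values used here. The labels describe 3 ChIP samples pooled per library, whereas the methods of the study describe 4 immunoprecipitations. According to the submitters' processing notes, the tools were Trimmomatic 0.36, BWA 0.7.12, Picard 2.0.1, MACS2 2.1.1.20160309 and HOMER 4.9.1 with the build mm10. The authors called peaks against input DNA, filtered them on the FDR and removed those on scaffolds and the mitochondrial chromosome. In the deposited lists the peak score is a number of the authors' peak caller without a fixed range, and the deposited columns of CpG and GC content hold fractions between 0 and 1, although their headers carry a percent sign. Gene name and distance to the nearest TSS are those of the authors' annotation.

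Member peaks were taken by gene name within 20 kb of the TSS. Ranks follow the score within a list. Partners had centres within 300 bp, the distance the study gives for merging peaks. Sequence was read from GRCm38, where the GC content of every listed interval equalled the listed value within 1.5e-06, and motifs were searched on both strands in the 300 bp around the interval centre or in the whole interval. RefSeq protein-coding genes, matched by Entrez ID, gave the gene background, and the genes and exons came from the RefSeq annotation of that build. Intervals within 20 kb of a RefSeq TSS under any gene name were added after the values had been seen. Shares have 95% Wilson intervals, which cover counting error only.

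All 10 members are named in the text. From the wider list the counts are given with the 3 genes of the best-ranked interval in each list, and genes with the same pattern of lists are counted. Members, lists and rules were chosen with earlier results of these data known. No test was run, since every group has 1 library. Overlap and motif search were tested on simulated data: by centres and by shared bases, 250 of 250 planted partners among 1000 intervals were found and 0 falsely, and 60 of 60 planted motifs were found in 300 windows, with 1 window holding a match by chance. Computations ran in Python 3.11.15 (pandas 2.3.3, numpy 2.4.6, scipy 1.17.1, matplotlib 3.10.9). Expression data and reads were not analysed here.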

Additional observations from a re-analysis of the deposited data

Results flagged for a closer look

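For *Insr* and *Pik3r1* the number of peaks within 20 kb differed between genotypes in opposite directions in the 2 tissues. ERRα 3SA minus WT was -1 for *Insr* in muscle (1 peak in WT, 0 in ERRα 3SA) and 1 in liver (1 and 2 peaks). For *Pik3r1* it was -1 in muscle (1 and 0 peaks) and 5 in liver (1 and 6 peaks). With 1 library in each group, neither the differences nor their difference between tissues was tested. The *Pik3r1* muscle peak was at the top 62.4% of its list, and 4 of the 5 added liver intervals ranked at the top 53.4% or lower.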

How the results depend on the processing

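Numbers in this paragraph are for WT muscle, ERRα 3SA muscle, WT liver and ERRα 3SA liver, in that order. At a score of at least 50, the genes bound were 1, 3, 7 and 7, the peaks 1, 4, 8 and 11, those shared between genotypes 0, 0, 7 and 7, and those shared between tissues 1, 3, 1 and 3. At a score of at least 100, these were 1, 2, 5 and 6 genes, 1, 2, 5 and 7 peaks, 0, 0, 4 and 4 shared between genotypes and 1, 2, 1 and 2 shared between tissues, and 0 peaks in any list held the ERRE. With lists of equal length there were 6, 4, 7 and 7 genes, 7, 5, 11 and 18 peaks, 1, 1, 9 and 8 shared between genotypes and 1, 3, 1 and 3 between tissues. Within 5 kb of the TSS there were 5, 6, 5 and 8 genes, 5, 7, 8 and 12 peaks, 2, 2, 7 and 6 shared between genotypes, 1, 3, 1 and 3 between tissues, and 0, 0, 1 and 0 with the ERRE. Within 50 kb there were 7, 8, 9 and 10 genes, 10, 21, 18 and 30 peaks, 4, 4, 12 and 11 shared between genotypes, 2, 7, 2 and 7 between tissues, and 1, 2, 5 and 3 with the ERRE. With centres within 100 bp, 1, 1, 6 and 6 peaks were shared between genotypes and 0, 1, 0 and 1 between tissues, and with centres within 1000 bp, or any shared base, 4, 3, 9 and 8 and 2, 5, 3 and 5. TNAAGGTCA was found in 0, 0, 4 and 3 peaks, and TCAAGGTCA anywhere in the interval in 0, 0, 1 and 2. Counting any peak within 20 kb of a RefSeq TSS of a member, whatever gene is named, which was chosen after seeing the data, gave 8, 7, 8 and 9 genes and 13, 26, 16 and 31 peaks, beside 49.3%, 63.2%, 43.9% and 52.2% of protein-coding genes. In muscle the lead of ERRα 3SA over WT in genes bound was 1 as reported and turned with lists of equal length (-2) and with any gene name (-1). The lead in peaks turned with lists of equal length (-2). The equal-length cuts fell inside tied scores, so both values of -2 and the liver gene number at equal length depend on how ties were broken. In liver the genes bound were equal at a score of at least 50 and with lists of equal length, and the lead in peaks kept its sign under each of these alternatives. The cause was not tested. No paired analysis was possible because each genotype and tissue has 1 library and no result comes from a test.

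The lists give no read numbers, so it is unknown at what depth a weak interval would have been called. Mice were pooled, so differences between animals cannot be seen. The name of the nearest TSS decided some absences (*Irs2* in WT muscle, *Gsk3a* in both WT lists). In WT muscle, however, the intervals near *Gsk3a* lay at *Zfp526* and *Erf*, 17.15 and 12.7 kb from the *Gsk3a* TSS, and none lay inside *Gsk3a*. The 20 kb limit decided other absences (*Gsk3b* in liver, *Foxo1* in WT, the *Insr* intron 2 and intron 9 sites). For *Pik3r1* in ERRα 3SA muscle the nearest named interval lay about 346 kb upstream, and none lay inside the gene.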
